A study of Homo sapiens with 15 samples.

Results

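The genes described are 10 genes of protein folding in the endoplasmic reticulum: HSPA5, HYOU1, SDF2L1, HSP90B1, PDIA4, PDIA6, CALR, CANX, MANF and CRELD2. They were chosen by name after earlier results on these same arrays were known, among them the lower level of SDF2L1 after infliximab than at 0 h and the level of HSPA5 after 24 h of CDP870. Those measurements, and the differences between the agents that use the same arrays of these 2 genes (SDF2L1 at both times, HSPA5 at 24 h), are therefore given as descriptions without a test. CDP870 minus 0 h of SDF2L1 shares the untreated arrays and is given in the same way. The arrays carry 22 probe sets annotated to 1 of these genes alone, out of 54613 probe sets that are not controls. A further 2 name HSP90B1 together with a microRNA gene and were left out. Of the 22, 21 lay above the array median on all 15 arrays and were tested with 28897 probe sets in all. The remaining probe set, 1 of CANX, lay below the median on every array, at 1.18 to 1.66, and was not tested. Where a gene has several tested probe sets, the one with the highest mean represents it.

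THP-1 is a human line grown from an acute monocytic leukaemia and stands in for monocytes in many studies. There were 5 groups of 3 arrays each: infliximab for 6 h, CDP870 for 6 h, infliximab for 24 h, CDP870 for 24 h, and untreated cells taken at 0 h. Infliximab is a whole antibody against tumour necrosis factor, and CDP870 (certolizumab pegol) is a PEGylated antibody fragment against the same cytokine that lacks the Fc part. The doses were not at hand, all arrays come from a single cell line, and untreated cells were taken at 0 h only, so a comparison with 0 h holds the agent and the time in culture together. The design text speaks of biological replicates within a group but no label tells of separate cultures, so a p-value reflects only how far these arrays differ from one another, which may be technical.

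Proteins bound for the cell surface, for secretion or for the lysosome are folded inside the endoplasmic reticulum. HSPA5 (BiP) binds unfolded chains and is served there by the exchange factor HYOU1 and by SDF2L1, HSP90B1 finishes selected clients, the disulfide isomerases PDIA4 and PDIA6 form and reshuffle disulfide bonds, and the lectins CALR and CANX hold chains that carry N-linked glycans. When unfolded chains accumulate, the sensors ATF6, IRE1 and PERK switch on the unfolded protein response: ATF6 and the spliced form of XBP1 raise chaperone genes through endoplasmic reticulum stress elements in their promoters, whereas PERK raises ATF4, a factor that also answers to amino acid shortage and other stresses in the integrated stress response.

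The promoter windows of the 10 genes are shown first because such elements are the sequence these genes are best known for. RefSeq windows of GRCh38.p14, from 250 bases before to 50 bases after a transcription start, were at hand for all 10 genes. Both strands were searched for the exact letters of the endoplasmic reticulum stress element (ERSE, CCAAT and CCACG with 9 bases between them) and of its second form (ERSE-II, ATTGG and CCACG with 1 base between them). An ERSE was present in 6 genes and an ERSE-II in 2. The matches are printed in the orientation of the element, with its fixed ends in capitals and the bases between them in lower case.

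HSPA5 ERSE: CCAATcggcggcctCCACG

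HSP90B1 first ERSE: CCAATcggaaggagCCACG

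HSP90B1 second ERSE: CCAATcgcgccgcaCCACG

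CALR ERSE: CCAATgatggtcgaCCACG

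CRELD2 ERSE: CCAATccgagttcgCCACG

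CANX ERSE: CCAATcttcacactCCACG

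PDIA6 ERSE: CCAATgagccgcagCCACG

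HYOU1 ERSE-II, found at 2 places: ATTGGaCCACG

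SDF2L1 ERSE-II: ATTGGtCCACG

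The 5 bases CCACG are common to all of these by construction, and the bases between the ends differ from gene to gene. MANF and PDIA4 held neither form in these windows. Among 27167 genes with RefSeq promoter windows of the same length, 0.092% held an exact ERSE in any window and 0.0699% an exact ERSE-II. The CCAAT box, which is part of the ERSE, was present in at least 1 window of all 10 genes and of 39.8% of all genes. The letters TGATGNAA, a common form of the element bound by ATF4, were found in 0 of the 10 genes and in 4.47% of all genes. A match is a string of letters and not a shown binding site.

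Windows of 3 genes are given whole as examples: HSPA5, the central chaperone, HYOU1, whose agent difference varied most between the times among the representing probe sets, and SDF2L1, whose agent difference was the largest among them. They are written 5′ to 3′ on the gene's strand in GRCh38.p14, with the ERSE or ERSE-II match in capitals as it reads on that strand. The windows lie at chr9:125241294-125241593 on the minus strand for HSPA5, at chr11:119057156-119057455 on the minus strand for HYOU1 and at chr22:21642052-21642351 on the plus strand for SDF2L1.

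HSPA5 promoter: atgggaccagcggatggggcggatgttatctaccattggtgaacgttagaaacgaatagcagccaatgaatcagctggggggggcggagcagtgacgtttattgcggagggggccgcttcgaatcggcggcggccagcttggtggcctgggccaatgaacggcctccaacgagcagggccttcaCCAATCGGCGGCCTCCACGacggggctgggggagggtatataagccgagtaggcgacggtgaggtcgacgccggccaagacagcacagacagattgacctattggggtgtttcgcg

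HYOU1 promoter: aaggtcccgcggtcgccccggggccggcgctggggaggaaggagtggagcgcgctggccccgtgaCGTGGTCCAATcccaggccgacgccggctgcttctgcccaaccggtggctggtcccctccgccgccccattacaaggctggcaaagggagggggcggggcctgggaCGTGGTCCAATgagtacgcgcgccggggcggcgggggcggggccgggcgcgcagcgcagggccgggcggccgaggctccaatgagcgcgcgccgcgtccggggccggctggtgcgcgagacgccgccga

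SDF2L1 promoter: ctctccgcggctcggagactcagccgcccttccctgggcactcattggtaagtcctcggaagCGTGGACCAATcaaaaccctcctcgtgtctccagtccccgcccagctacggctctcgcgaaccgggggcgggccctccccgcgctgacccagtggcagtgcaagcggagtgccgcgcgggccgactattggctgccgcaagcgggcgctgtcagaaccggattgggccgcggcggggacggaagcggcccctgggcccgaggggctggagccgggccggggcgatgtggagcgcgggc

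All values below are log2 probe set summaries as deposited, and a difference of 1 is a doubling if the base of the logarithm is 2, which the labels do not state. Levels are compared between arrays for the same probe set and never between probe sets. Earlier work on these data set 3 arrays apart, untreated replicate 3 and replicates 5 and 6 of infliximab at 24 h, and over the tested probe sets the 3 infliximab 24 h arrays correlated with one another less closely (0.974 to 0.979) than arrays of the other groups did (0.985 to 0.994). The 3′ minus 5′ control value on infliximab 24 h replicate 6 was 0.27 for ACTB and 0.24 for GAPDH. On the other arrays it was at most 0.03 and 0.02. Its part in the 24 h results was not tested. Of 13 monocyte line markers on the array, 11 lay above the median on all 15 arrays, while CD14 did so on 2 arrays and CD36 on 1. Of 6 epithelial markers, 5 lay above the median on every array and CDH1 on none. Their mean level was 6.36 to 6.57 after 6 h of infliximab, 5.53 to 5.74 after 6 h of CDP870, 6.45 to 6.55 after 24 h of infliximab, 5.62 to 5.7 after 24 h of CDP870 and 5.96 to 6.14 at 0 h. All 5 passed the test as higher with infliximab than with CDP870 at both times, so they moved with every difference between the agents described here, and their part in those differences was not tested. The hybridisation spike-ins averaged 7.75 ± 0.04 after 6 h of infliximab, against 7.5 ± 0.12 after 6 h of CDP870, and 7.51 ± 0.15 after 24 h of infliximab, against 7.6 ± 0.2 after 24 h of CDP870, with 7.38 ± 0.13 at 0 h (SD, n = 3 each). Their part was tested only as a covariate.

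Comparing the agents at the same time removes the difference in time in culture. After 6 h, 6 of the 10 genes were lower with infliximab than with CDP870: SDF2L1, MANF, HYOU1, CALR, CRELD2 and PDIA4, at 51.9% to 74.6% of the CDP870 level, and a second probe set added HSPA5. HSP90B1, CANX and PDIA6 did not pass the test, and no probe set of the 10 genes was higher. Counted by probe set, 10 of 21 were lower and 0 higher (limma, Benjamini-Hochberg adjusted p under 0.05), beside 3.98% lower and 5.1% higher of all tested probe sets. The 10 include the probe set of SDF2L1, whose infliximab arrays served to name the genes. The median log2 difference over the 10 genes was -0.6, beside -0.03 over all tested probe sets. Every infliximab array lay below every CDP870 array for 14 of the 21 probe sets, which was so for 20.4% of all tested probe sets. Since the genes were named with results of the infliximab arrays in view, these counts describe the set and are not independent evidence of its direction. RNA was taken from whole cultures, so a lower level in each cell and a smaller share of expressing cells cannot be told apart.

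After 24 h, 5 of the 10 genes were lower with infliximab than with CDP870: SDF2L1, MANF, HSPA5, CRELD2 and PDIA4. HYOU1 and CALR no longer passed the test, and HSP90B1, CANX and PDIA6 again did not. Counted by probe set, 6 of 21 were lower and 0 higher, beside 1.79% lower and 4.73% higher of all tested probe sets. The 6 include the probe set of SDF2L1 and both of HSPA5, whose arrays served to name the genes. The median over the 10 genes was -0.48, beside 0 over all tested probe sets. Every infliximab array lay below every CDP870 array for 11 of the 21 probe sets, beside 8.87% of all tested probe sets. The difference between the times was itself not past the threshold for any of the 21 probe sets. In this interaction of agent and time, limma called 0 of the 21 and 0% of all tested probe sets. An unadjusted p under 0.05 was seen for 3 of the 21 and 2642 of all. Among the 19 probe sets of the 9 genes other than HSPA5 it was seen for 2.

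**Figure D1:**
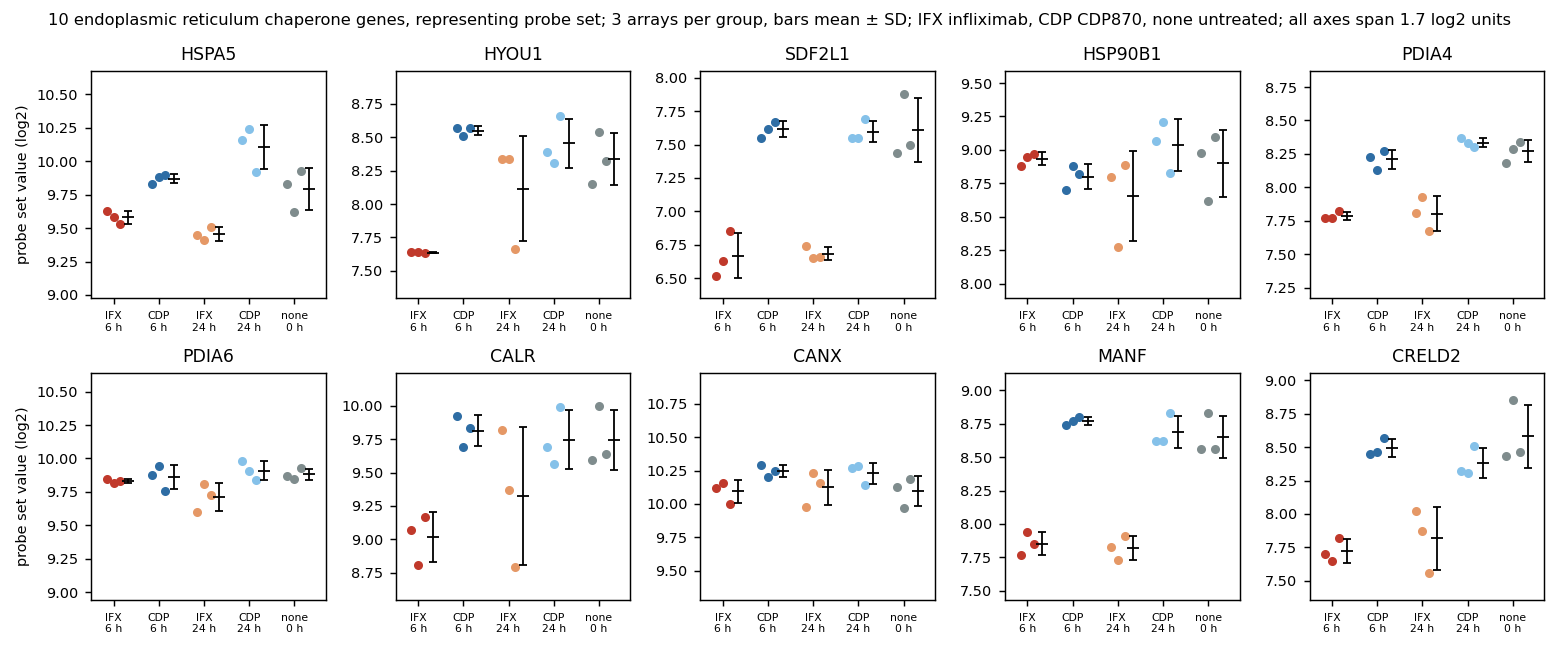
Probe set values (log2) of the 10 genes on all 15 arrays, 1 panel per gene and 3 points per group, with the mean and SD as bars to the right of the points; all axes span the same range. SDF2L1, MANF, PDIA4 and CRELD2 sit lower on all 6 infliximab arrays than on every other array, whereas CANX and PDIA6 differ little between groups. How many of all tested probe sets show that separation was not counted, so it is a description only.

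**Figure D2:**
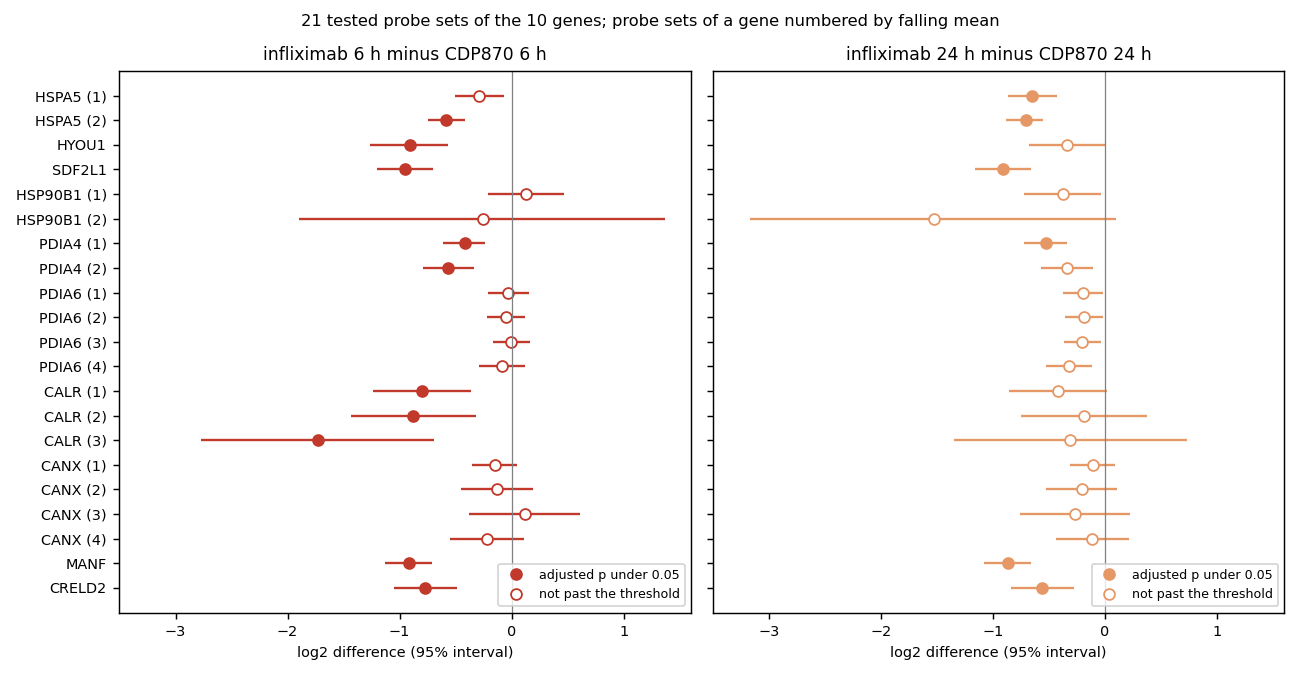
Log2 difference of infliximab minus CDP870 with its 95% interval for each of the 21 tested probe sets at 6 h (left) and 24 h (right), filled where the adjusted p is under 0.05. The filled points number 10 at 6 h and 6 at 24 h, and all lie below 0.

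SDF2L1, which binds the HSPA5 machinery through its J-domain partners, showed the largest difference between the agents among the representing probe sets, at both times. Its only probe set read 6.52, 6.63 and 6.85 after 6 h of infliximab and 7.55, 7.62 and 7.67 after 6 h of CDP870. After 24 h it read 6.74, 6.65 and 6.66 with infliximab and 7.55, 7.55 and 7.69 with CDP870, and the untreated arrays read 7.44, 7.88 and 7.5. The 6 infliximab arrays lay below all 9 other arrays with no overlap. The log2 difference of infliximab minus CDP870 was -0.95 ± 0.12 at 6 h and -0.91 ± 0.12 at 24 h (model SE), and infliximab minus 0 h was -0.94 ± 0.12 and -0.92 ± 0.12. No p is given for these or for CDP870 minus 0 h because the infliximab and untreated arrays served to pick the gene. CDP870 minus 0 h was 0.01 ± 0.12 at 6 h and -0.01 ± 0.12 at 24 h, with 95% intervals of -0.24 to 0.26 and -0.26 to 0.24.

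HSPA5, the central chaperone, which also keeps the stress sensors inactive when few unfolded chains compete for it, was lower with infliximab by a smaller amount. Its representing probe set read 9.63, 9.58 and 9.53 after 6 h of infliximab and 9.83, 9.88 and 9.9 after 6 h of CDP870. After 24 h it read 9.45, 9.41 and 9.51 with infliximab and 10.16, 10.24 and 9.92 with CDP870, and the untreated arrays read 9.83, 9.62 and 9.93. Infliximab and CDP870 arrays did not overlap at either time, and 1 untreated array fell within the range of the 6 h infliximab arrays. The difference between the agents was -0.29 ± 0.1 at 6 h, which did not pass (limma, adjusted p = 0.0879, 95% interval -0.51 to -0.07; it passed in 5 of 16 alternative analyses, whose adjusted p ran from 0.00218 to 0.222), and -0.65 ± 0.1 at 24 h, 63.7% of the CDP870 level. A second HSPA5 probe set read 4.71, 4.62 and 4.64 after 6 h of infliximab and 5.25, 5.28 and 5.2 after 6 h of CDP870, and passed at 6 h, at -0.59 ± 0.08 (adjusted p = 0.000404). At 24 h its difference was -0.71 ± 0.08. The 2 probe sets thus gave the same direction and disagreed on the call at 6 h. The 24 h difference of HSPA5 also holds a higher CDP870 value: CDP870 at 24 h minus 0 h was 0.31 ± 0.1, among the values known when the genes were named, so no p is given for either 24 h difference.

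HYOU1, a large relative of HSPA5 that releases its nucleotide, was uniform at 6 h and split at 24 h. Its probe set read 7.64, 7.64 and 7.63 after 6 h of infliximab, against 8.57, 8.51 and 8.57 after 6 h of CDP870. After 24 h of infliximab replicates 5 and 6 both read 8.34 and replicate 7 read 7.66, against 8.39, 8.31 and 8.66 after 24 h of CDP870, while the untreated arrays read 8.15, 8.54 and 8.32. The 6 h arrays of the agents were far apart, and at 24 h 2 of the 3 infliximab arrays lay among the CDP870 arrays. The difference between the agents was -0.91 ± 0.16 at 6 h (limma, adjusted p = 0.00296, 53.1% of the CDP870 level) and -0.34 ± 0.16 at 24 h (adjusted p = 0.255). Without control replicate 3 and infliximab 24 h replicates 5 and 6, which leaves 1 infliximab array at 24 h assumed to vary like the others, the 24 h difference was -0.79 (adjusted p = 0.00691, over all its alternatives up to 0.628). Without infliximab 24 h replicate 7, HYOU1 was higher at 24 h than at 6 h of infliximab by 0.7 (adjusted p = 0.00366) and its interaction of agent and time passed, at 0.8 (adjusted p = 0.0219), so its course between the times rests on which infliximab 24 h arrays are kept.

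HSP90B1, the Hsp90-type chaperone of the compartment, did not pass in any comparison of the main analysis. Its representing probe set read 8.88, 8.95 and 8.97 after 6 h of infliximab and 8.7, 8.88 and 8.82 after 6 h of CDP870. After 24 h it read 8.8, 8.27 and 8.89 with infliximab and 9.07, 9.21 and 8.83 with CDP870, and the untreated arrays read 8.98, 8.62 and 9.1. The differences between the agents were 0.13 ± 0.16 at 6 h (adjusted p = 0.642, 95% interval -0.21 to 0.47) and -0.38 ± 0.16 at 24 h (adjusted p = 0.186, 95% interval -0.72 to -0.04). With array weights the 24 h difference was -0.5 (adjusted p = 0.0497, over all alternatives up to 0.646). The promoter of HSP90B1 is the one of the set with a pair of exact ERSE matches.

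The disulfide isomerases divided: PDIA4 was lower with infliximab and PDIA6 did not pass. The representing probe set of PDIA4 read 7.77, 7.77 and 7.82 after 6 h of infliximab and 8.23, 8.13 and 8.27 after 6 h of CDP870. After 24 h it read 7.81, 7.93 and 7.67 with infliximab and 8.37, 8.33 and 8.3 with CDP870, and the untreated arrays read 8.18, 8.29 and 8.34. No infliximab array reached the lowest of the others. The difference between the agents was -0.42 ± 0.09 at 6 h (limma, adjusted p = 0.00808) and -0.53 ± 0.09 at 24 h (adjusted p = 0.00209; 0.0683 when only those 2 groups were fitted, the highest of its alternatives). Its second probe set passed at 6 h, at -0.57 ± 0.11 (adjusted p = 0.00479), and not at 24 h. PDIA6 has 4 tested probe sets, of which the representing one read 9.85, 9.82 and 9.83 after 6 h of infliximab and 9.88, 9.94 and 9.76 after 6 h of CDP870. It spanned 9.6 to 9.81 after 24 h of infliximab, 9.84 to 9.98 after 24 h of CDP870 and 9.85 to 9.93 at 0 h. The 24 h infliximab arrays thus lay below all CDP870 24 h and untreated arrays. Its difference was -0.03 ± 0.08 at 6 h (adjusted p = 0.879, 95% interval -0.21 to 0.15) and -0.2 ± 0.08 at 24 h (adjusted p = 0.207, 95% interval -0.38 to -0.02), and none of its other probe sets passed. All 4 had every infliximab array below every CDP870 array at 24 h, beside 8.87% of all tested probe sets. The 4 read the same gene on the same arrays and are not separate evidence.

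Of the lectins, CALR was lower at 6 h and CANX did not pass. CALR, the soluble lectin, has 3 tested probe sets whose responses differed in size. The representing one read 9.07, 8.81 and 9.17 after 6 h of infliximab, against 9.92, 9.69 and 9.83 after 6 h of CDP870. The third read 6.63, 6.81 and 6.92 after 6 h of infliximab, against 8.65, 8.24 and 8.67 after 6 h of CDP870. For both probe sets the agents did not overlap at 6 h. The differences were -0.8 ± 0.21 (limma, adjusted p = 0.0268), -0.88 ± 0.26 for the second (adjusted p = 0.0494) and -1.73 ± 0.49 for the third (adjusted p = 0.0383), so the 3 agreed in direction while the size ran from 57.6% to 30.1% of the CDP870 level. The larger differences also hold higher CDP870 values. In the same order, CDP870 at 6 h minus 0 h was 0.07 ± 0.21, 0.36 ± 0.26 and 0.84 ± 0.49, and passed for none. Infliximab at 6 h minus 0 h was -0.73 ± 0.21, -0.52 ± 0.26 and -0.9 ± 0.49. The call of the representing probe set was lost in 6 of 16 alternative analyses, among them 5 of the 6 that left out 1 array, where the adjusted p ran up to 0.111, and with the spike-in level as a covariate (-0.56, adjusted p = 0.238, the highest of its alternatives).

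At 24 h the CALR arrays scattered. With infliximab, the third probe set read 8.87 on replicate 5, 6.74 on replicate 6 and 6.71 on replicate 7, against 7.42, 7.37 and 8.45 with CDP870, and the untreated arrays read 7.19, 8.53 and 7.33. A single array of each of these 3 groups was thus more than 1 above the other 2, whereas the 6 h groups were tight. The representing probe set read 9.82, 9.37 and 8.79 after 24 h of infliximab and 9.69, 9.56 and 9.99 after 24 h of CDP870, a difference of -0.42 ± 0.21 that did not pass (adjusted p = 0.28). Without the 3 arrays that stood apart, which leaves 1 infliximab array at 24 h, the difference was -0.96. Over all its alternatives the adjusted p ran up to 0.651. CANX, the membrane-bound lectin, read 10.12, 10.16 and 10 after 6 h of infliximab and 10.29, 10.2 and 10.25 after 6 h of CDP870 for its representing probe set, a small gap without overlap. The values spanned 9.98 to 10.23 after 24 h of infliximab, 10.14 to 10.28 after 24 h of CDP870 and 9.97 to 10.19 at 0 h. Its difference was -0.15 ± 0.09 at 6 h (adjusted p = 0.334, 95% interval -0.35 to 0.05) and -0.11 ± 0.09 at 24 h (adjusted p = 0.595, 95% interval -0.31 to 0.09), and its other 3 tested probe sets did not pass either.

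**Figure D3:**
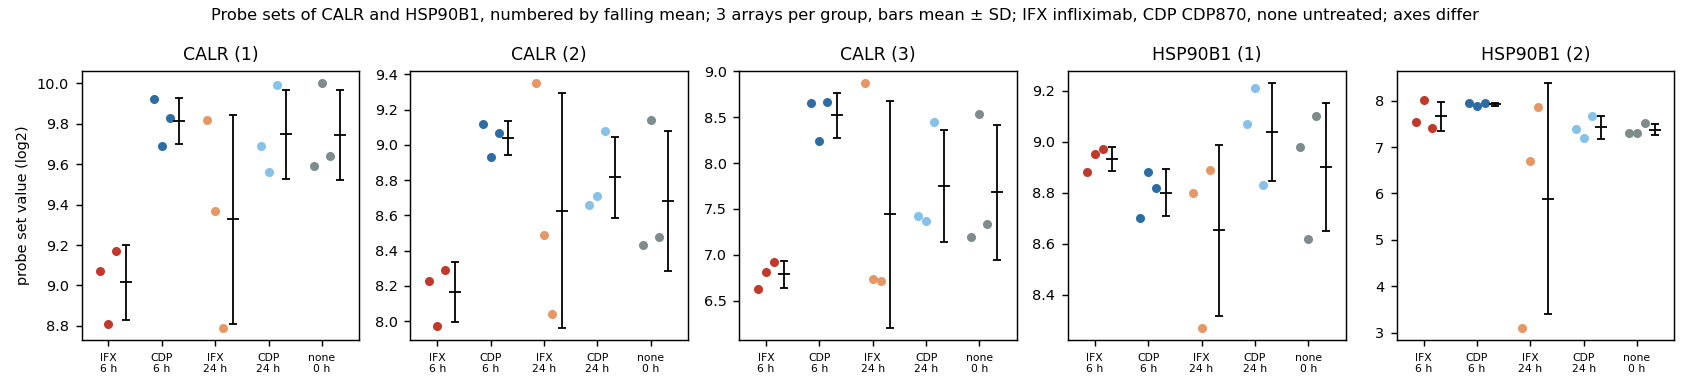
Probe set values (log2) on each array for the 3 probe sets of CALR and the 2 of HSP90B1, numbered by falling mean, with group mean and SD as bars; the axes differ between panels. The third CALR probe set has 1 high array in each of the infliximab 24 h, CDP870 24 h and untreated groups, and the second HSP90B1 probe set has 1 infliximab 24 h array at 3.1.

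MANF and CRELD2 are small proteins of the compartment that are induced by unfolded protein stress and can be secreted. MANF, which binds HSPA5 and protects neurons, read 7.77, 7.94 and 7.85 after 6 h of infliximab and 8.74, 8.77 and 8.8 after 6 h of CDP870. After 24 h it read 7.83, 7.73 and 7.91 with infliximab and 8.62, 8.62 and 8.83 with CDP870, and the untreated arrays read 8.56, 8.83 and 8.56. All 6 infliximab arrays lay below the other 9. The difference between the agents was -0.92 ± 0.1 at 6 h (limma, adjusted p = 6.75e-05, 53% of the CDP870 level) and -0.87 ± 0.1 at 24 h (adjusted p = 9.61e-05, 54.8%).

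CRELD2 followed the same order with more scatter. Its probe set read 7.7, 7.65 and 7.82 after 6 h of infliximab and 8.45, 8.46 and 8.57 after 6 h of CDP870. After 24 h it read 8.02, 7.87 and 7.56 with infliximab and 8.32, 8.31 and 8.51 with CDP870, and the untreated arrays read 8.43, 8.85 and 8.46. No infliximab array overlapped the others. The difference between the agents was -0.77 ± 0.13 at 6 h (limma, adjusted p = 0.00248) and -0.56 ± 0.13 at 24 h (adjusted p = 0.0183). The 24 h call was lost when only these 2 groups were fitted (adjusted p = 0.126) and without CDP870 24 h replicate 13 (adjusted p = 0.0748).

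Against the untreated arrays the infliximab values are given as a description, since they share their arrays with the result that picked SDF2L1. After 6 h, 8 of 21 probe sets were lower and 0 higher, beside 4.4% lower and 4.02% higher of all tested probe sets. Log2 differences of infliximab 6 h minus 0 h were -0.8 ± 0.1 for MANF, -0.86 ± 0.13 for CRELD2, -0.7 ± 0.16 for HYOU1, -0.73 ± 0.21 for CALR, -0.48 ± 0.09 for PDIA4 and -0.21 ± 0.1 for HSPA5 (-0.46 ± 0.08 for its second probe set). After 24 h, 6 of 21 were lower and 0 higher, beside 2.79% lower and 3.78% higher of all tested probe sets, and the differences were -0.83 ± 0.1 for MANF, -0.76 ± 0.13 for CRELD2, -0.22 ± 0.16 for HYOU1, -0.42 ± 0.21 for CALR, -0.47 ± 0.09 for PDIA4 and -0.34 ± 0.1 for HSPA5 (-0.52 ± 0.08 for its second probe set). For the other CALR probe sets, infliximab minus 0 h was -0.52 ± 0.26 and -0.9 ± 0.49 at 6 h. At 24 h it was -0.06 ± 0.26 and -0.24 ± 0.49. None of these passed. The 6 h value of the representing CALR probe set ran from -0.8 to -0.37 over the 16 alternatives, and its call was lost in 10. Over the 16 alternatives the 24 h value ran from -0.57 to 0 for HYOU1 and from -0.82 to -0.15 for CALR. The latter read -0.66 without infliximab 24 h replicate 5. The 6 h count fell to 2, MANF at -0.78 and SDF2L1 at -0.97, with the spike-in level as a covariate. Both infliximab comparisons use the same 3 untreated arrays.

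The median difference of CDP870 from 0 h was small over the 10 genes, while some probe sets had wide intervals. After 6 h of CDP870 the third CALR probe set differed from 0 h by 0.84 ± 0.49 (95% interval -0.2 to 1.88). The second HSP90B1 probe set differed by 0.55 ± 0.77 (95% interval -1.09 to 2.19). At 6 h minus 0 h none of the 21 probe sets passed (limma, 0 called and 0 with an unadjusted p under 0.05; 0% of all tested probe sets called and 1352 of them with an unadjusted p under 0.05), and the median over the 10 genes was 0.04. At 24 h minus 0 h none of the 19 probe sets of the 9 genes other than HSPA5 passed (limma, 0 called and 0 with an unadjusted p under 0.05; 0% of all tested probe sets called and 1359 of them with an unadjusted p under 0.05), and the median over the 10 genes was 0.05. Both counts of CDP870 minus 0 h include SDF2L1, and the 6 h count also includes HSPA5. Untreated arrays of these genes served to name the set, so for them the counts are a description. Among the representing probe sets the widest 95% interval at 24 h was that of CALR, -0.44 to 0.44, so changes of that size could not be seen there. Between 24 h and 6 h of infliximab, 0 of 21 probe sets passed (limma, 0% of all tested probe sets called). An unadjusted p under 0.05 was seen for 2 of the 21 and 3437 of all. Between 24 h and 6 h of CDP870, 0 of the 19 probe sets of the 9 genes other than HSPA5 passed (limma, 0% of all). Of these 19, 0 had an unadjusted p under 0.05, beside 1437 of all.

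Other genes of the same compartment, in lists that were drawn up with earlier results of these data known, are set beside the 10. Of 37 tested genes for other folding enzymes and chaperones, 4 were lower and 3 higher with infliximab than with CDP870 at 6 h, and 2 were lower and 3 higher at 24 h, with medians of -0.01 and -0.02. Over all tested probe sets 3.98% were lower and 5.1% higher at 6 h and 1.79% and 4.73% at 24 h, with medians of -0.03 and 0, as given above; the same shares stand beside each list that follows. PRDX4, a peroxidase that feeds disulfide formation, was lower at both times (-0.49 ± 0.09 and -0.56 ± 0.09, limma adjusted p = 0.0049 and 0.00217). DNAJC3, a J-domain partner of HSPA5, was lower at 6 h (-0.37 ± 0.09, adjusted p = 0.0183), with 7.84, 7.97 and 8.02 after infliximab, 8.34, 8.25 and 8.34 after CDP870 and 8.03, 7.96 and 8.07 at 0 h, so that the CDP870 arrays lay above the untreated ones and the infliximab arrays overlapped them. DNAJB11, another partner, was lower at 24 h (-0.36 ± 0.07, adjusted p = 0.00966). CLGN, a lectin related to CANX and best known from the testis, was higher at both times (1.49 ± 0.28 and 1.17 ± 0.28, adjusted p = 0.00513 and 0.0223). Of 29 tested genes of the translocon and N-glycosylation, 0 passed at 6 h, and at 24 h SEC11C was lower (-0.36 ± 0.1, adjusted p = 0.0497) and SEC11A higher (0.3 ± 0.08, adjusted p = 0.0317).

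Of 19 tested genes of degradation from the endoplasmic reticulum, 3 were lower, 3 higher and 13 did not pass at 6 h, and 1 was lower, 2 were higher and 16 did not pass at 24 h, with medians of 0.03 and -0.02. HERPUD1, which organises the ubiquitin ligase of this pathway, was higher at both times (0.65 ± 0.11 and 0.57 ± 0.11, limma adjusted p = 0.0021 and 0.00532), whereas UFD1, an adaptor of the extracting ATPase VCP, was lower (-0.4 ± 0.08 and -0.3 ± 0.08, adjusted p = 0.00625 and 0.0344). EDEM1, a mannosidase-like protein that marks glycoproteins for removal, was higher at 24 h (0.48 ± 0.13, adjusted p = 0.0351).

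Of 18 tested stress sensors and their factors, 4 were higher and 0 lower at each time. ATF4 differed by 0.84 ± 0.08 at 6 h and 0.89 ± 0.08 at 24 h, and DDIT3, its target, by 1.18 ± 0.13 and 1.39 ± 0.13 (limma adjusted p = 2.13e-05 or lower for ATF4 and 6.16e-05 or lower for DDIT3). XBP1, whose spliced form drives chaperone genes, was higher at 6 h (0.55 ± 0.09, adjusted p = 0.00252); these probe sets were not used to tell the spliced from the unspliced form. In the integrated stress response list 20 of 23 genes were higher and 0 lower at both times, with medians of 1.69 and 1.66; earlier results had already shown this list to be higher. ASNS, asparagine synthetase, differed by 3.38 ± 0.11 at 6 h and 3.39 ± 0.11 at 24 h.

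**Figure D4:**
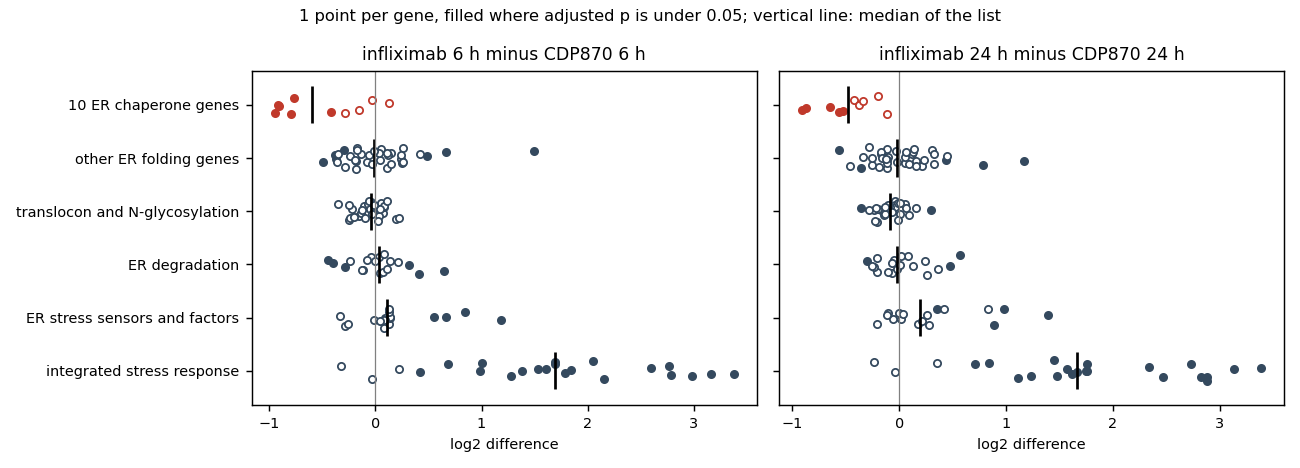
Log2 difference of infliximab minus CDP870 for each gene, at 6 h (left) and 24 h (right), for the 10 chaperone genes and 5 lists of related genes, filled where the adjusted p is under 0.05, with the median of each list as a vertical line. The chaperone genes lie mostly below 0 (medians -0.6 and -0.48), the folding, translocon and degradation lists lie around 0, and the integrated stress response list lies above 0 (medians 1.69 and 1.66).

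The genes most like SDF2L1 over the 15 arrays, by root mean square difference between profiles centred and scaled to unit SD, were EIF5 (0.17), PRDX4 (0.18), SEC13 (0.22), CDCA3 (0.22) and PHB1 (0.23). Among the other 9 genes of the set, MANF came closest at 0.18, followed by CRELD2 at 0.28 and PDIA4 at 0.36, while CANX at 1.19 and HSP90B1 at 1.23 were farthest. For HSPA5 the closest genes were HSP90AA1 (0.33), SLAIN1 (0.34), PRRG4 (0.35), PGM2 (0.38) and CACYBP (0.39), and within the set PDIA4 at 0.59. All of these values come from the same 15 arrays and are a description only. HSP90AA1, a cytosolic Hsp90, differed between the agents by -0.25 at 6 h and -0.58 at 24 h, against -0.29 and -0.65 for HSPA5.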

How the data were processed

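Total RNA of 15 THP-1 samples was labelled with biotin and hybridised to Affymetrix arrays by the manufacturer's standard procedure, per the labels' protocols. The deposited values are log2 probe set summaries; the submitters' processing notes name GCOS 1.3.0 and GCRMA without role or order, and no source used here gives the base of the logarithm, the background step or the normalization between arrays. Treating them as log2 rests on their range (0.17 to 11.94) and on the hybridisation spike-ins, which rise in their known order. No array was a copy of another: at most 5.6% of the deposited values, which have 2 decimals, were exactly equal between 2 arrays.

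Probe sets were named from the platform annotation, with symbols updated through Entrez numbers to RefSeq GRCh38.p14 names; those naming several genes were left out. A probe set was tested if it lay above the array median on at least 3 of 15 arrays, which kept 28897. The model had a mean for each group, used all 15 arrays and was run in limma 3.58.1 (R 4.3.3; lmFit, contrasts.fit and eBayes); p-values are two-sided, adjusted by Benjamini-Hochberg over all tested probe sets, and called under 0.05. Errors beside differences are model standard errors. The number of arrays limits the precision. Named genes are all 10 genes, up to 3 called genes with the smallest p per list, or 2 values where none passed, and the 5 profiles nearest to SDF2L1 and to HSPA5; most of these are printed. The genes, lists and comparisons were chosen with earlier results of these data known. The fit was tested on simulated data. Plots used matplotlib 3.10.9 (Python 3.11.15).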

Additional observations from a re-analysis of the deposited data

How the results depend on the processing

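The counts of called probe sets among the 21 were recomputed with no filter, a stricter filter, other scalings, only the groups compared, array weights, a robust trended spread, the spike-in level as a covariate, each array left out and without the 3 arrays that stood apart. For infliximab minus CDP870 at 24 h the 6 calls became 3 with only the groups compared (MANF, SDF2L1 and 1 probe set of HSPA5) and 10 without the 3 arrays. For infliximab minus 0 h the 8 calls at 6 h became 2 with the spike-in covariate, and the 6 at 24 h became 2 with only the groups compared; both times MANF and SDF2L1 were the pair. The causes of these changes were not tested. Arrays of SDF2L1 and HSPA5 served to name the genes, so the calls of these 2 genes are given as a description. Leaving out 1 array gave 7 to 8 calls for the agents at 6 h, 5 to 8 at 24 h, 6 to 7 for infliximab minus 0 h at each time, 0 to 2 for infliximab 24 h minus 6 h (HYOU1 and an HSP90B1 probe set without infliximab 24 h replicate 7), 0 to 1 for the interaction (HYOU1, the same array) and 0 for the CDP870 comparisons. The MANF difference between the agents stayed past the threshold in all 16 alternatives at each time. No represented gene with a call changed direction. After the scalings the median log2 difference over all tested probe sets ran from -0.02 to 0.04 across the comparisons. No paired analysis was possible because replicates are numbered through the whole series, so no number is shared by groups.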

Other observations

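An exact ERSE or ERSE-II was present in the promoter windows of 36 genes outside the set, of which 26 were tested. With infliximab against CDP870, 2 of the 26 were lower and 3 higher at 6 h, and 0 were lower and 3 higher at 24 h, with medians of -0.02 and -0.03. XBP1 and HERPUD1, both well-known genes of the unfolded protein response, were among the higher ones at both times. At 6 h they differed by 0.55 ± 0.09 and 0.65 ± 0.11 (limma, adjusted p = 0.00252 for XBP1 and 0.0021 for HERPUD1). Both were singled out after their values were seen. Of the genes in the set with either form, SDF2L1, HYOU1, CALR and CRELD2 were lower at 6 h. The representing probe sets of HSPA5, HSP90B1, CANX and PDIA6 did not pass. MANF and PDIA4, which held neither form, were lower.

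The second HSP90B1 probe set read 3.1, 6.7 and 7.87 on infliximab 24 h replicates 5, 6 and 7, against 7.19 to 7.68 after 24 h of CDP870 and 7.3 to 7.51 at 0 h. The representing HSP90B1 probe set read 8.8 on the array with the value of 3.1.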
